A study of Mus musculus with 4 samples.

Results

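Nrxn2, Nrxn3, Nlgn1, Nlgn2, Nlgn3, Lrrtm1, Lrrtm2, Lrrtm3 and Lrrtm4 are the 9 genes described here, of 31053 measured. They were chosen by their symbols, as 3 families of cell-surface proteins that meet across the synapse, and all 9 had counts. They were measured by single-nucleus RNA sequencing of microdissected superior colliculus, a midbrain centre for visual and other sensory input, from C57BL/6J mice at 4 stages, 1 before birth (E19, embryonic day 19) and 3 after it (P4, P8 and P21, in postnatal days). No stage carried a treatment or an altered allele, per the labels. Tissue of several mice was pooled for each stage and gave 1 library; how many mice, and of which sex, is not stated in the labels. A stage therefore had no replicate, no p-value was computed, and every interval below is a 95% interval for counting error only. The share of nuclei with the X-inactivation transcript Xist was 0.967% at E19 and 40.7% to 68.1% at the later stages. In comparisons with E19, stage can therefore not be told apart from the sex of the pooled mice.

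Neurexins are presynaptic receptors whose extracellular part binds several unrelated partners on the facing cell. Neuroligins are postsynaptic adhesion proteins and classical neurexin partners; Nlgn1 is best known at excitatory synapses, Nlgn2 at inhibitory synapses, and Nlgn3 at both. Lrrtm proteins are postsynaptic leucine-rich-repeat adhesion proteins; Lrrtm1 and Lrrtm2 bind neurexins through their protein part, and Lrrtm3 and Lrrtm4 also bind the heparan sulfate chains that neurexins and glypicans carry.

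The 4 libraries held 2249 to 2585 nuclei and 19277512 to 31325079 unique molecular identifiers (UMIs, tags that count captured RNA molecules once). Median UMIs per nucleus lay between 6828 and 11745 and were lowest at E19 and highest at P21. The authors' annotation placed 9724 nuclei in 9 classes and 35 subtypes, of which 7552 nuclei were neurons. Of 31 marker genes, 25 were highest in the class they mark. The exceptions were Slc1a3 and Gja1 of astrocytes and all 4 epithelial markers, of which Epcam and Folr1 had no UMI in the class labelled epithelial, so that class is not described by its name's markers. Across the libraries, 9 cell barcodes occurred in more than 1 library, with at most 3 shared by any pair.

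Levels are given as CPM, the UMIs of a gene scaled to 1e+06 UMIs of the class, and on that scale long genes led. Nrxn3 spans 1612 kb at chr12:88722876-90334935 on the plus strand of GRCm38 (mm10), Nlgn1 spans 906 kb at chr3:25426215-26332460 on the minus strand, and Lrrtm4 spans 791 kb at chr6:80018877-80810143 on the plus strand. Nuclear RNA was counted over introns as well as exons, so levels were compared between genes only per length. Over all neurons and the mean of the 4 libraries, CPM per kb of gene span was 4.51 for Nlgn2, 4.41 for Lrrtm4, 3.48 for Nlgn1, 3.31 for Nrxn2 and 3.26 for Lrrtm3. It was 2.32 for Nrxn3, 2.22 for Nlgn3, 2.05 for Lrrtm2 and 1.14 for Lrrtm1. Per kb of span, the 9 genes thus lay between 1.14 and 4.51, while in CPM alone their extremes were 3747 for Nrxn3 and 12.4 for Lrrtm2. Per kb of exon they ran from 2.05 for Lrrtm2 to 568 for Lrrtm4, so the narrow range holds for span alone. Whether length sets the levels was not tested. Further positions were chr19:6418731-6544169 (plus) for Nrxn2, chr11:69823122-69837784 (minus) for Nlgn2, chrX:101299168-101325963 (plus) for Nlgn3, chr6:77242689-77257791 (plus) for Lrrtm1 and chr10:63928472-64090277 (minus) for Lrrtm3.

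The promoters of 3 genes, picked from the 6 with a window used here, are shown as the 250 bases upstream of an annotated RefSeq start (GRCm38.p6). Nrxn2, which differed most clearly between stages, had no window. Nrxn3 is shown as the gene that differed most between neuron classes, Nlgn2 as a gene that was lower at P21 in excitatory neurons, and Lrrtm4 as the gene that was higher in most subtypes. The Nrxn3 window is that of the most downstream of its 3 annotated starts (chr12:89812233-89812482, plus), inside the gene. The others are chr11:69837785-69838034 (minus) for Nlgn2 and chr6:80018627-80018876 (plus), the more upstream of 2 starts, for Lrrtm4. Capitals mark matches to a GC box (GGGCGG), an E-box (CANNTG), a TATA box (TATAAA) or a cAMP response element (TGACGTCA) on either strand.
Nrxn3: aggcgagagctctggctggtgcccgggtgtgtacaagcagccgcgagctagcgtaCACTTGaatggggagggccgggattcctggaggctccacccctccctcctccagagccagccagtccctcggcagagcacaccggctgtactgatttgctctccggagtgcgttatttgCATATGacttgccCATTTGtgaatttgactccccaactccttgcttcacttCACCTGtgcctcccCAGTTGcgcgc
Nlgn2: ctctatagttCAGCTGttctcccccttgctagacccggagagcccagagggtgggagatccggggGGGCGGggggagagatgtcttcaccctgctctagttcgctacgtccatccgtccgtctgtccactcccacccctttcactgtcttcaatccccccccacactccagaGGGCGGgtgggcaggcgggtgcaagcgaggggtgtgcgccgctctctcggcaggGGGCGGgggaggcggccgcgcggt
Lrrtm4: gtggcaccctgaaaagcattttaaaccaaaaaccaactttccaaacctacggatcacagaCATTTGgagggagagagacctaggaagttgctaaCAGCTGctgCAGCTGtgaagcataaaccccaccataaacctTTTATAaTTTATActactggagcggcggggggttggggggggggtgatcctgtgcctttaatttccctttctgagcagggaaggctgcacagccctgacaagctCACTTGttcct
The Nlgn2 window held 3 GC boxes and 1 E-box, with 67.6% G or C and 18 CpG dinucleotides. The Nrxn3 window held 5 E-boxes and no GC box, with 60.0% G or C and 12 CpG. The Lrrtm4 window held 4 E-boxes and 2 TATA boxes, with 49.2% G or C and 3 CpG. Of 32851 RefSeq promoter windows of the same length, 32.7% held a GC box, 66.2% an E-box, 12.4% a TATA box and 1.55% a cAMP response element, and the median window had 52.4% G or C and 6 CpG. The windows of other starts of the same gene differed from those shown: the other Nrxn3 windows held 2 and 5 CpG with 0 and 1 E-box, and the other Lrrtm4 window held 8 CpG, 2 E-boxes and no TATA box. The reads came from 3′ libraries, and which start the RNA came from was not measured.

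Excitatory and inhibitory neurons of the same library were compared first. Nrxn3 was the gene that separated the classes. In inhibitory neurons its level was 7558, 7010.0, 7154 and 7916 CPM from E19 to P21. In excitatory neurons it was 1413, 1591, 1257 and 1524 CPM in the same order. All 4 inhibitory values lay far above all 4 excitatory values, and the ratio of inhibitory to excitatory CPM was 5.35, 4.41, 5.69 and 5.19 in that order. The log2 ratio of excitatory to inhibitory level, with 5 CPM added to both, averaged -2.36 ± 0.16 (SD over 4 libraries). The difference also held for most nuclei. The 90th percentile of Nrxn3 CPM over excitatory nuclei stayed below the 10th percentile over inhibitory nuclei in each library. These were 3364 against 4939 CPM at P21 and, closest, 3344 against 3473 CPM at P4. Nuclei beyond these percentiles can overlap between the classes.

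Nrxn3 was thereby 1 of 68 genes that were at least 1.5-fold higher in inhibitory neurons in 4 of 4 libraries, which is 1.09% of the 6219 genes at 20 CPM or more in either class of every library. It ranked 20th of the 6219 from the inhibitory side by mean log2 ratio. Of the other 6 members tested, none passed in that direction, and none of the 7 was at least 1.5-fold higher in excitatory neurons in 4 of 4 libraries, where 1.48% of genes were. The classes were defined by the authors from the same counts, so these differences are descriptions and were not tested.

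Nlgn1 leaned towards excitatory neurons. Its level there was 3218, 3391, 3572 and 3616 CPM from E19 to P21, against 2708, 3046, 2560.4 and 2601 CPM in inhibitory neurons. It was higher in excitatory neurons in 4 of 4 libraries, with a mean log2 ratio of 0.34 ± 0.16 (SD over 4 libraries), short of 1.5-fold in each. Nlgn2 was higher in inhibitory neurons in 3 of 4 libraries, with a mean log2 ratio of -0.12 ± 0.17, smaller in size than its SD. The mean log2 ratios of Nrxn2 (-0.13 ± 0.072), Nlgn3 (-0.12 ± 0.12) and Lrrtm4 (-0.086 ± 0.16) were likewise small, and that of Lrrtm3 was 0.025 ± 0.081. Lrrtm1 (0.13 ± 0.081) and Lrrtm2 (-0.13 ± 0.16) were too low to be counted among the genes tested. Apart from Nrxn3, no member thus had a mean log2 ratio beyond 0.34 in size. The ratios of Nlgn3 and the other small ones are not read as directions, and that of Nlgn3 was 0.011 with nuclei thinned to equal depth.

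**Figure D1:**
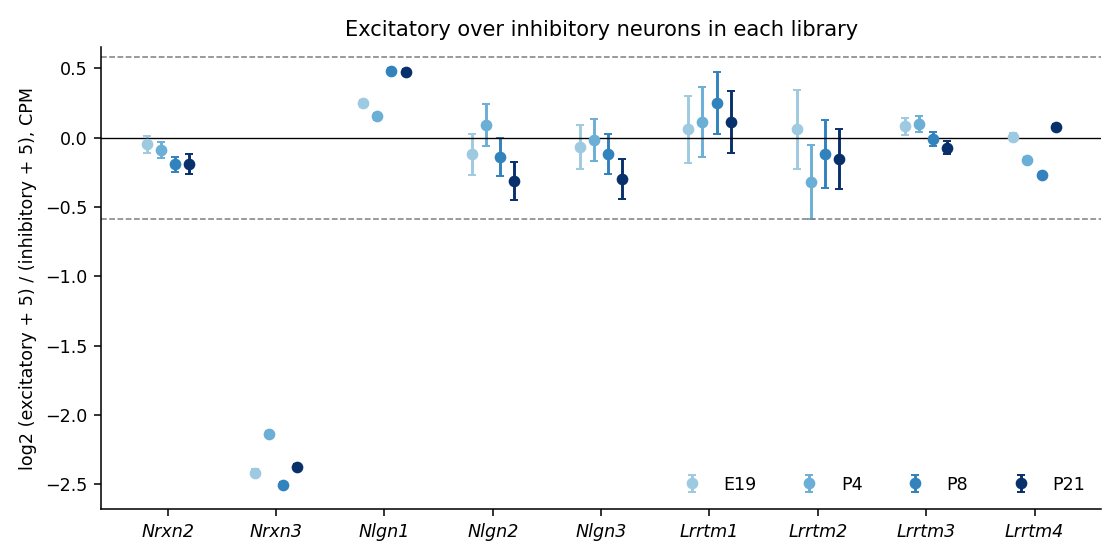
Log2 ratio of excitatory to inhibitory CPM (5 CPM added to both) for the 9 genes, with 1 point per library coloured by stage and bars for the 95% Poisson-based interval; the dashed lines mark 1.5-fold. The 4 Nrxn3 points lie between -2.50 and -2.14, and no other gene has a point beyond a dashed line.

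Excitatory neurons still held some Nrxn3. Their Nrxn3 CPM was 17.6% to 22.7% of the inhibitory level over the 4 libraries, while their CPM of the inhibitory markers was 5.37% to 8.46% of the inhibitory level for Gad1, 2.71% to 4.60% for Gad2 and 6.57% to 15.1% for Slc32a1. The whole class thus lay above the level at which the inhibitory markers appeared in it. In EN5, EN6 and EN13, the excitatory subtypes lowest in Nrxn3, the share was 3.47% to 10.1%, beside 2.35% to 26.5% for the 3 markers in those subtypes, the top of which rests on 10 Slc32a1 UMIs. In each library of EN5 and EN13, and of EN6 except at P21, at least 1 marker had a share as high as that of Nrxn3, and there Nrxn3 cannot be told apart from RNA of inhibitory neurons. In EN6 at P21, Nrxn3 (7.98%, 660 UMIs) was above Gad1 (3.65%), Gad2 (2.35%) and Slc32a1 (7.34%, 6 UMIs), but 6 UMIs are too few to part it from Slc32a1. In EN6 at P8, Slc32a1 alone (15.8%, 10 UMIs) was above Nrxn3 (10.1%), with Gad1 at 4.93% and Gad2 at 3.32%. At P21, 1 excitatory nucleus held 1002 of the 22266 Nrxn3 UMIs of its class (4.5%).

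The next comparison was of the level of each gene between the 25 neuron subtypes that had at least 30 nuclei in 1 or more libraries, 13 excitatory (EN) and 12 inhibitory (IN). Subtypes were ordered by the mean over such libraries of log2(CPM + 5), given below as the CPM at that mean. For Nrxn3, all 12 inhibitory subtypes stood above all 13 excitatory ones. The inhibitory values ran from 5347 CPM in IN10 to 9974 CPM in IN12, and the excitatory ones from 387 CPM in EN13 to 2437 CPM in EN7. The highest 3 were IN12, which entered through the P8 library alone, IN9 (8421 CPM) and IN2 (8392 CPM), and the lowest 2 were EN5 (439 CPM) and EN13. In IN2, Nrxn3 was 8209, 7913, 8221 and 9290 CPM from E19 to P21, and in EN5 it was 313, 620.2, 438 and 435 CPM. The order had steps between plateaus: 6 of 24 gaps between neighbours exceeded the SD over libraries of the 2 subtypes, among them IN10 over EN7 by 1.13 and EN10 over EN6 by 0.91 on the log2 scale. For IN12 over IN9, also among the 6, the SD was that of IN9 alone. Among the 17 subtypes with 30 nuclei in all 4 libraries, IN2 was highest.

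Nlgn1 had a different set of high and low subtypes. It was highest in EN6 (4438 CPM), EN5 (3886 CPM) and EN2 (3827 CPM) and lowest in IN3 (1025 CPM) and IN7 (935 CPM). EN6 held 4128, 4148, 4455 and 5088 CPM from E19 to P21, and IN7 held 894, 862, 933 and 1063 CPM, so the pair did not overlap in any library. EN5 and EN6, low in Nrxn3, thus led for Nlgn1. Inhibitory neurons were not uniformly low, as IN1 held 3655 CPM, close to EN3 at 3659 CPM, and the next subtype above IN3 was IN6 at 1420.4 CPM. Of 24 neighbouring gaps, 3 exceeded the spread over libraries: EN6 over EN5, IN12 over IN6, and IN6 over IN3. IN12, from 1 library, has no SD, and its gap was set against the spread of IN6 alone.

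Lrrtm4 and Lrrtm3, similar between the 2 classes, differed widely between subtypes. Lrrtm4 was highest in IN11 (6125 CPM), IN2 (4789 CPM) and EN2 (4523 CPM) and lowest in EN9 (857 CPM) and EN5 (607 CPM), 10.0-fold apart on the scale with 5 CPM added. IN11 entered through the P8 library alone. None of its 24 neighbouring gaps exceeded the spread over libraries, because its level within a subtype moved by an SD of 0.65 (log2) between libraries. Lrrtm3 was highest in IN11 (967 CPM, P8 library alone), EN8 (832 CPM) and IN2 (689 CPM). It was lowest in IN4 (246 CPM) and IN3 (117 CPM). In IN3, Lrrtm3 was 89.4, 161, 96.8 and 133 CPM from E19 to P21, below IN4 in each of 4 libraries and apart from it by 1.04 on the log2 scale, beyond the spread.

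The other 5 genes differed less between subtypes than between libraries. For Nrxn2, the SD between subtypes was 0.21 and the SD over libraries within a subtype 0.50 (log2); none of its highest subtypes, EN7 (E19 and P4), IN11 and IN12 (P8), entered through P21, the library in which the classes had their lowest Nrxn2. Its lowest subtypes were EN5 (308 CPM) and EN9 (302 CPM). Nlgn2 ranged from 82.2 CPM in IN4, followed by IN12 and IN9, to 54.7 CPM in EN12 and 48.9 CPM in IN11, with no neighbouring gap beyond the spread. Nlgn3 ranged from 77.6 CPM in EN11, followed by IN4 and EN10, to 48.7 CPM in EN12 and 39.9 CPM in EN13, again with no such gap. EN11 entered through E19 and P4 and EN13 through P8 and P21, the libraries with the lower Nlgn3 in excitatory neurons. Lrrtm1 was highest in EN4, at 40.8, 26.7, 26.6 and 29.4 CPM from E19 to P21, then IN11 and EN7, and lowest in IN10 and IN12. Lrrtm2, the least counted, was highest in IN5 (20.5 CPM), EN7 and IN12 and lowest in EN13 (7.16 CPM) and IN8 (6.28 CPM). It rests on 79 to 202 UMIs per whole neuron class and library, of which each subtype holds only a part. For Nlgn2, Nlgn3 and Lrrtm2 the order of neighbouring subtypes therefore cannot be told apart from the spread over libraries. Nrxn2 and Lrrtm1 each had 1 neighbouring gap beyond the spread, between EN7 and IN11. Those subtypes share no library, so that gap cannot be told apart from a difference between stages.

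**Figure D2:**
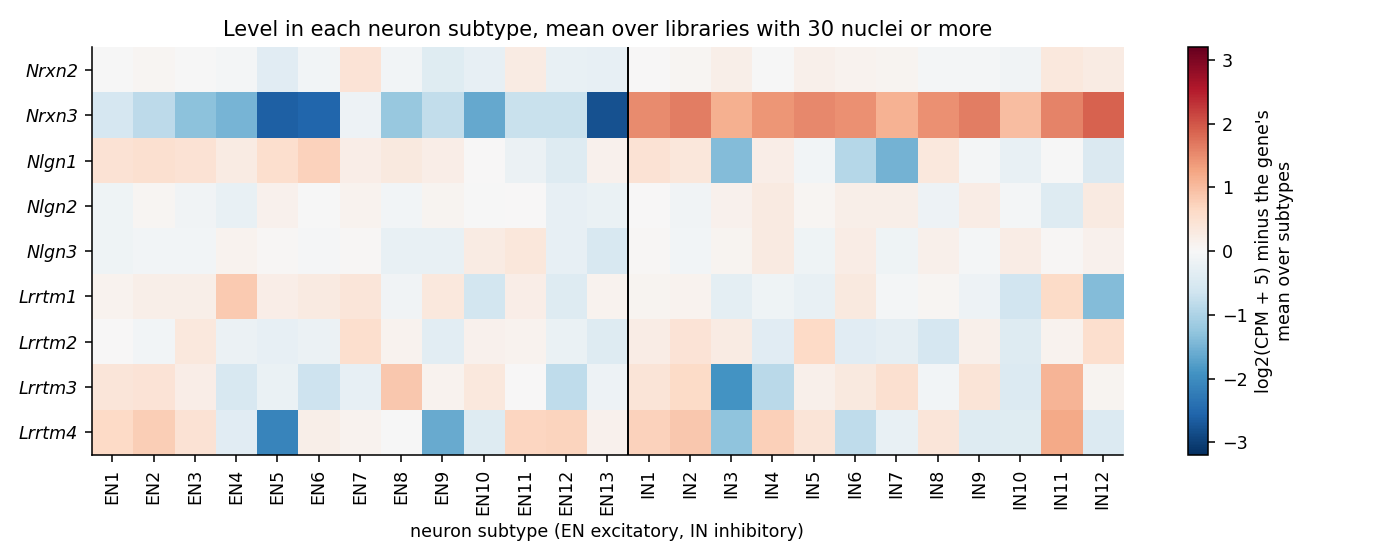
Level of each gene in 25 neuron subtypes, as log2(CPM + 5) averaged over the libraries with 30 nuclei or more of the subtype, minus the gene's mean over subtypes (colour); the vertical line parts excitatory from inhibitory subtypes. Nrxn3 is above its mean in all 12 inhibitory subtypes, and Nlgn1 is lowest in IN3 and IN7.

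Between stages, Nrxn2 showed the clearest difference. In excitatory neurons it was 500.1, 488, 397 and 219.8 CPM from E19 to P21. The inhibitory class held 516, 520.4, 455 and 251 CPM in the same order. The P21 value was below all others in both classes, and the log2 ratio of P21 to E19 was -1.17 (-1.23 to -1.11) in excitatory and -1.03 (-1.10 to -0.95) in inhibitory neurons. Most of it lay between P8 and P21, where the log2 ratio was -0.84 in excitatory and -0.85 in inhibitory neurons.

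The smaller neuroligins were also lower at P21. Nlgn2 in excitatory neurons was 77.5, 68.9, 58.2 and 49.8 CPM from E19 to P21, a log2 ratio of -0.59. Nlgn3, an X-linked gene, was 69.7, 65.5, 50.7 and 43.2 CPM there, a log2 ratio of -0.63. Both were lower in each later library than in the one before it, and Nlgn2, at 1.505-fold, only just passed the threshold. In inhibitory neurons, Nlgn2 was 84.5, 64.3, 64.7 and 63.1 CPM (log2 ratio -0.40) and Nlgn3 73.1, 66.4, 55.3 and 54.1 CPM (log2 ratio -0.40), short of 1.5-fold. The share of nuclei with a UMI of the X-inactivation transcript Xist was 0.967% at E19 and 40.7% to 68.1% later, so that this share moved with stage. This holds for each comparison with E19, and the part of sex in the values of Nlgn3 or any other gene was not tested.

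Lrrtm1 was 25.1, 17.2, 16.6 and 13.4 CPM in excitatory neurons and 23.8, 15.5, 13.2 and 12.03 CPM in inhibitory neurons, with log2 ratios of -0.71 and -0.76. Its highest value was at E19 in both classes. Lrrtm4 went the other way, with 2775, 3513, 3100.1 and 4276 CPM in excitatory neurons (log2 ratio 0.62) and 2767, 3929, 3730.1 and 4041 CPM in inhibitory neurons (log2 ratio 0.55, short of 1.5-fold). Its lowest value was at E19 in both classes. Lrrtm2 stayed under 20 CPM in every library of both classes and was not tested. Nrxn3, Nlgn1 and Lrrtm3 had log2 ratios between -0.058 and 0.30 over the whole span.

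In excitatory neurons, 4 of 8 members tested (Nrxn2, Nlgn2, Nlgn3 and Lrrtm1) were thus at least 1.5-fold lower at P21 than at E19, beside 21.5% of the 7650 genes tested, and 1 (Lrrtm4) was higher, beside 12.8%. In inhibitory neurons 2 of 8 (Nrxn2 and Lrrtm1) were lower, beside 21.4% of 7807 genes, and none was higher, beside 14.6%. Lrrtm1 reached 20 CPM at E19 alone in both classes, so it was tested only through the library where it was highest. The inhibitory shares were near those of all genes. The median log2 ratio of the members tested was -0.24 in excitatory and -0.23 in inhibitory neurons, beside -0.061 and -0.037 over all genes tested. With median-of-ratios scaling in place of CPM, which moved the median of all genes to 0.065 and 0.071, the excitatory count of lower members was 2, Nrxn2 and Lrrtm1.

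**Figure D3:**
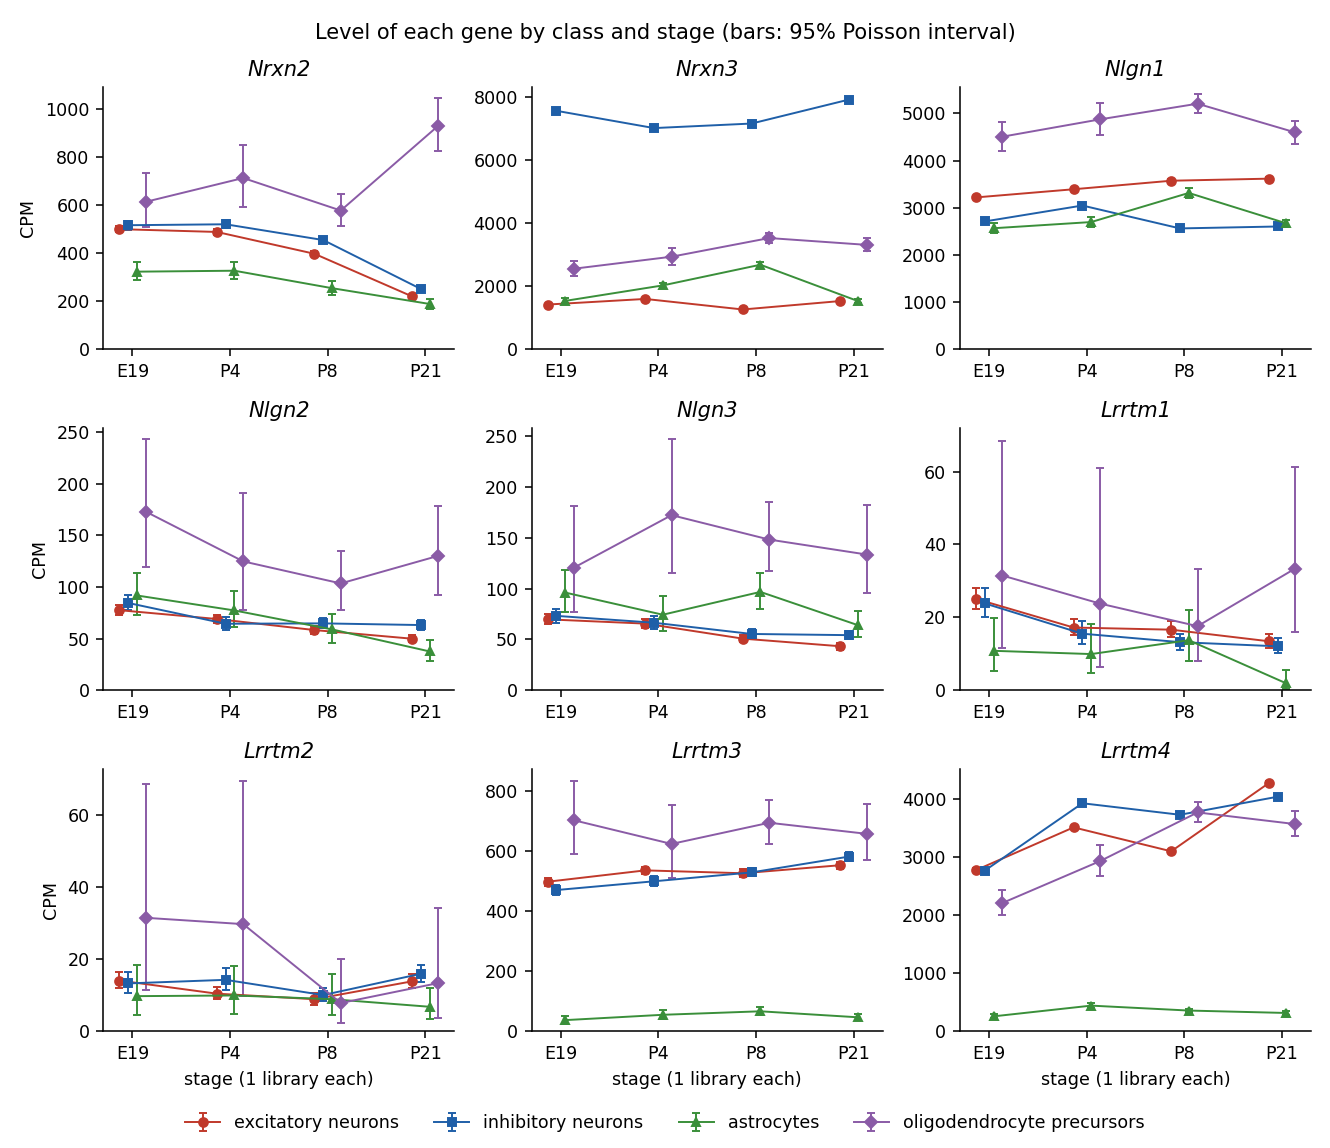
CPM of each of the 9 genes at 4 stages in excitatory and inhibitory neurons, astrocytes and oligodendrocyte precursors, with 1 library per stage and bars for exact 95% Poisson intervals; each panel has its own linear axis from 0. Nrxn2 is lowest at P21 in both neuron classes (219.8 and 251 CPM) and highest at P21 in oligodendrocyte precursors (932 CPM).

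The make-up of the classes also differed between libraries. Among excitatory nuclei, EN1 and EN2, both high in Lrrtm4, made up 59.9% at E19 and 25.5% at P21, and EN4, EN5, EN6, EN9 and EN10, low in it at E19, made up 17.0% and 41.6%; these subtypes were grouped after their values were seen. The stage difference was therefore also taken within each of the 19 subtypes that had 30 nuclei or more at both E19 and P21.

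Within subtypes, Nrxn2 was lower at P21 in 19 of 19, beyond the counting interval in each, with a median log2 ratio of -1.11 and a range from -1.38 in EN3 to -0.46 in IN9. In EN3 it was 552 CPM at E19 and 209 CPM at P21. Lrrtm4 was higher in 18 of 19 subtypes, beyond the counting interval in each, with a median log2 ratio of 1.21, well above its class values of 0.62 and 0.55. The largest difference was in EN5, where it was 205, 469, 604 and 2304 CPM from E19 to P21 (log2 ratio 3.46, 3.09 to 3.82). The exception was IN3, at 1483, 1616, 879 and 641 CPM (log2 ratio -1.20, -1.36 to -1.05).

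Lrrtm3 was higher at P21 in 16 of 19 subtypes, beyond counting in 13, with a median log2 ratio of 0.51. IN4 showed the largest difference, with 118, 188, 300.2 and 540.3 CPM from E19 to P21 (log2 ratio 2.15, 1.71 to 2.59), and IN7 the largest in the other direction, from 920.4 to 603 CPM (log2 ratio -0.61). Nlgn1 was higher in 16 of 19, beyond counting in each, but with a median of only 0.30. Nrxn3 was higher in 13 and lower in 6, with 8 of 9 excitatory subtypes higher, led by EN6 (263 to 632 CPM) and EN9 (1015 to 2211 CPM). The E19 value of EN6 rests on 53 UMIs and, as given above, cannot be told apart from RNA of inhibitory neurons. At P8, EN6 held 724 CPM, more than at P21.

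The lower-expressed members kept their direction within subtypes with less certainty. Nlgn2 was lower in 17 of 19, beyond counting in 10, with a median log2 ratio of -0.61. Nlgn3 was lower in 17 of 19, beyond counting in 9, with a median of -0.47. Lrrtm1 was lower in 16 of 19, beyond counting in 9, with a median of -0.83. For Lrrtm2, 12 were higher and 7 lower, and 3 exceeded counting error.

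For Nlgn1 the class and the subtypes gave different pictures in inhibitory neurons. The class was 2708 CPM at E19 and 2601 CPM at P21 (log2 ratio -0.058, -0.086 to -0.030), while 8 of its 10 subtypes were higher at P21. IN3, IN6 and IN7, the lowest 3 in Nlgn1, made up 16.9% of the inhibitory nuclei of the E19 library and 32.6% of those of P21, and with subtypes weighted alike the class ratio was 0.29; with median-of-ratios scaling it was 0.048.

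**Figure D4:**
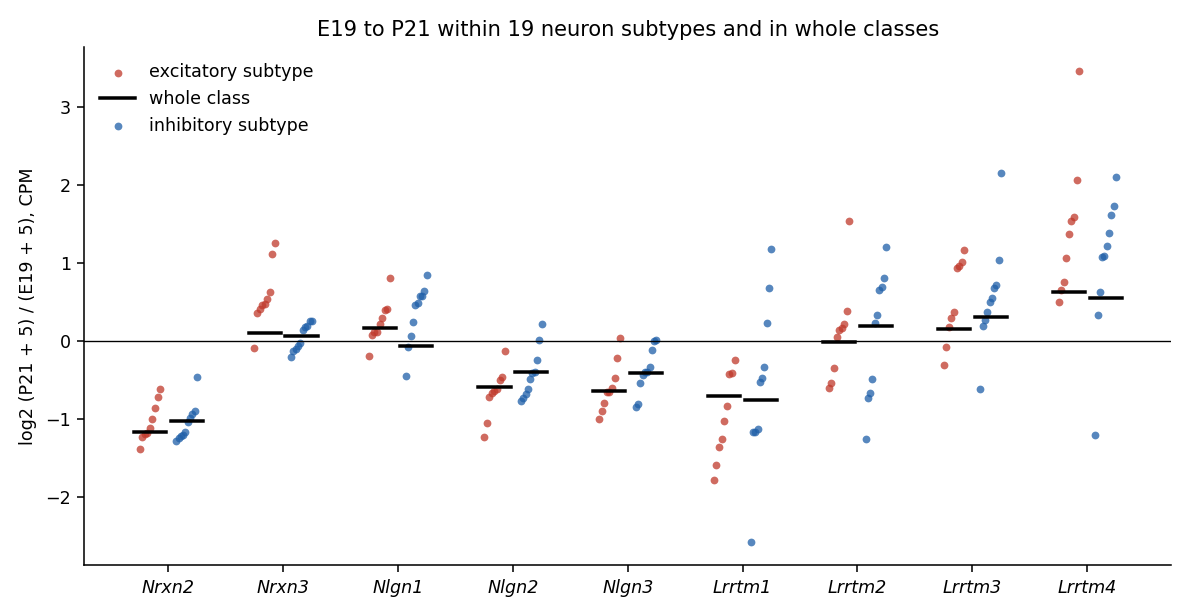
Log2 ratio of P21 to E19 CPM (5 CPM added to both) of each gene in 9 excitatory and 10 inhibitory subtypes (points) and in the whole classes (black bars). Nrxn2 lies below 0 in 19 of 19 subtypes, and 18 of 19 Lrrtm4 points lie above 0, most of them above the class value.

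The balance between members of a family shifted accordingly. UMIs of 2 members were compared within a class as a ratio. Only the difference of this ratio between libraries or classes is read, since the 2 genes differ in length. The log2 ratio of Nrxn3 to Nrxn2 UMIs was 1.499, 1.70, 1.66 and 2.79 from E19 to P21 in excitatory neurons and 3.87, 3.75, 3.98 and 4.98 in inhibitory neurons, so that most of the difference lay between P8 and P21 in both. Nlgn1 to Nlgn2 was 5.38, 5.62, 5.94 and 6.18 from E19 to P21 in excitatory neurons, higher in each later library. In inhibitory neurons it was 5.002, 5.57, 5.31 and 5.37, highest at P4. Lrrtm1 to Lrrtm2 went from 0.84 (0.55 to 1.12) to -0.044 (-0.33 to 0.25) in excitatory neurons and from 0.85 (0.44 to 1.26) to -0.40 (-0.74 to -0.075) in inhibitory neurons.

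Outside neurons, the level of each member was set against that of all neurons of the same library, beside the same ratio for 9 control genes known as neuronal markers. The control ratios of 1 class and library spread widely, for example from 0.049 to 0.77 in astrocytes at P4, so they give a range for comparison and not a measured share of neuronal RNA. In astrocytes, the neuroligins stood out. Nlgn1 was 2564, 2696, 3313 and 2668 CPM from E19 to P21, 0.82 to 1.07 times the neuron level. Nlgn2 was 91.8, 77.2, 58.9 and 37.5 CPM (0.67 to 1.15 times), and Nlgn3 96.1, 74.3, 96.8 and 64.0 CPM (1.13 to 1.83 times). All 3 exceeded each control gene, with their intervals, in 4 of 4 libraries; the highest control ratio was 0.25 at P21 and 0.60 to 0.77 earlier. Lrrtm3 and Lrrtm4, in contrast, stood at 0.075 to 0.13 times the neuron level, within the control range, where the control genes' pooled level was 8.05% to 16.1% of that in neurons. Nrxn3 in astrocytes was 0.35 to 0.68 times the neuron level and exceeded each control in 2 libraries, P8 and P21.

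Oligodendrocyte precursors, the progenitors of myelinating cells, held more of each neuroligin than neurons did. Nlgn1 was 4507, 4874, 5207 and 4598 CPM from E19 to P21, 1.45 to 1.67 times the neuron level, and above the highest neuron subtype, EN6, in 3 of 4 libraries. Nlgn3 was 121, 172, 148 and 134 CPM, 1.70 to 2.81 times the neuron level. Nlgn2 was 173, 125, 103 and 130.2 CPM, 1.69 to 2.34 times. All 3 neuroligins were thus higher in precursors than in neurons in each library. Lrrtm3 was 624 to 703 CPM, 1.16 to 1.44 times the neuron level, and Lrrtm4 2209 to 3770.2 CPM, 0.80 to 1.11 times. The highest of the 9 control genes stood at 0.82 to 0.98 times. Nrxn3 stood at 0.73 to 0.91 times. Nrxn3 and Lrrtm4 each exceeded the highest control at P8 alone, at 0.89 and 1.11 against 0.84 times. Nrxn2 was 614, 713, 578 and 932 CPM, and at P21, when neurons were at their lowest, precursors held 3.99 times their level. These values rest on 46, 42, 109 and 64 nuclei.

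Myelinating oligodendrocytes, present as 187 nuclei at P21, were low in most of the set. Nrxn3 was 262 CPM and Lrrtm4 205 CPM there, 0.061 and 0.049 times the neuron level. Nlgn1 was 803 CPM and Nlgn2 12.1 CPM, 0.25 and 0.22 times. Nlgn3, at 43.4 CPM, stood at 0.90 times, above the highest control at 0.24. Nrxn2 was 129.5 CPM (0.56 times), and Lrrtm2 15.3 CPM (1.04 times, on 24 UMIs). In the lineage as a whole, 9 of 9 members were at least 1.5-fold lower at P21 than at E19, beside 40.4% of 8611 genes, and none was higher, beside 22.2%. Lrrtm1 and Lrrtm2 were tested there through E19 alone, on 6 UMIs each, as both were under 20 CPM at P21. Precursors were 97.9% of the lineage at E19 and 20.9% at P21. Within precursors alone, 1 of 9 (Lrrtm2, on 6 and 4 UMIs) was lower, beside 28.4% of 8604 genes, and 2 (Nrxn2 and Lrrtm4) were higher, beside 21.5%. In astrocytes 2 of 7 tested (Nrxn2 and Nlgn2) were lower, beside 32.9% of 8577 genes, and none was higher, beside 14.9%; with median-of-ratios scaling 1 was lower and 1 higher.

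Vascular leptomeningeal cells, which line vessels and the brain surface, held Nlgn2 above the neuron level in 3 of 4 libraries. It was 68.2, 93.4, 74.8 and 111 CPM from E19 to P21, 0.85 to 1.999 times the neuron level, and exceeded each control with its interval in 3 of 4 libraries, while the other members did so in none. Nrxn2 there was 177, 126, 85.2 and 26.2 CPM from E19 to P21. Nrxn3 was 227, 398, 459 and 715 CPM and Lrrtm4 145, 175, 224 and 294 CPM. Nrxn2 was thus lowest and the other 2 highest at P21, while each stayed below the highest control in every library. In dividing cells, measured at E19 (36 nuclei) and P8 (35 nuclei), Nlgn1 exceeded each control in both libraries, at 0.96 and 1.52 times the neuron level. Nrxn2, Nrxn3, Nlgn2, Nlgn3, Lrrtm3 and Lrrtm4 did so at P8 alone. In the class labelled epithelial, Nlgn2 exceeded each control in both libraries, on 19 and 12 UMIs. In microglia, measured at P21 alone, no member did.

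**Figure D5:**
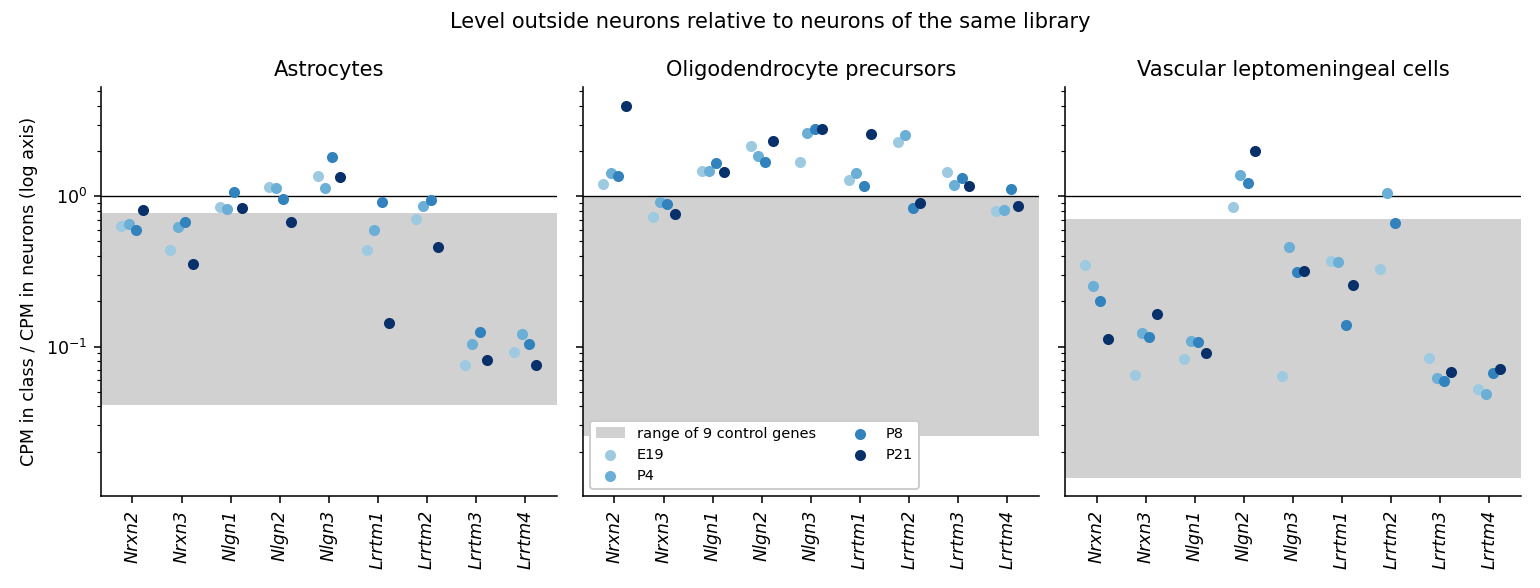
CPM in astrocytes, oligodendrocyte precursors and vascular leptomeningeal cells divided by CPM in all neurons of the same library, on a log axis, with 1 point per library coloured by stage; the grey band is the range of 9 neuronal control genes over the 4 libraries, the line marks equal levels, and Lrrtm2 in vascular cells at P21, with no UMI, is not drawn. The neuroligins of precursors lie between 1.45 and 2.81, and Lrrtm3 and Lrrtm4 of astrocytes between 0.075 and 0.13.

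Lrrtm1, Lrrtm2 and Lrrtm3 each lie wholly inside a catenin gene on its opposite strand, Ctnna2, Ctnna1 and Ctnna3, which encode alpha-catenins of adherens junctions. No label says whether UMIs were assigned by strand, so those of host and nested gene could be shared. Across the 25 neuron subtypes, Lrrtm3 and Ctnna3 had a Pearson r of 0.97 (a description over subtypes that share libraries), with Ctnna3 at 69.1 to 104 CPM in the neuron classes. Across all 34 subtypes with 30 nuclei the r was 0.24. In astrocytes, Ctnna3 was 14.0, 133, 293 and 409 CPM from E19 to P21, while Lrrtm3 was 36.7, 54.5, 66.1 and 46.1 CPM. The pair thus ran together across neuron subtypes. Over the stages in astrocytes, a different comparison, Ctnna3 was higher in each later library and Lrrtm3 was not. Lrrtm3 in astrocytes was within the range of the control genes. Lrrtm1 and Ctnna2 had an r of 0.27 over the neuron subtypes and 0.74 over all 34, with Ctnna2 at 2757 to 3915 CPM and Lrrtm1 at 12.03 to 25.1 CPM in neurons, and Lrrtm2 and Ctnna1 had an r of -0.10 and -0.21.

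Among 11297 genes, those most like each member across the 34 subtype means, by Pearson r of log2(CPM + 5), were Nova2 (0.95) and Ctnna2 (0.91) for Nrxn2, and Gm27199 (0.86) and Gata3 (0.85) for Nrxn3. Gata3 is a transcription factor of midbrain inhibitory neurons. For the neuroligins they were Grid1 (0.84) and Sez6l (0.83) for Nlgn1, Ip6k2 (0.86) and Nespas (0.85) for Nlgn2, and Lrrc4b (0.89) and Brsk2 (0.84) for Nlgn3. Grid1 encodes a delta-type glutamate receptor that is linked to neurexins through cerebellins, and Lrrc4b is another postsynaptic leucine-rich-repeat adhesion protein. For the Lrrtm genes they were Slc6a15 (0.82) and Srsf12 (0.82) for Lrrtm1, Mars (0.65) and Zdhhc14 (0.64) for Lrrtm2, Fgf12 (0.90) and Rab27b (0.90) for Lrrtm3, and Jazf1 (0.87) and Hcn3 (0.85) for Lrrtm4. The subtypes share libraries and neurons are set against glia among them, so these values describe likeness only. Among the members themselves, over 25 neuron subtypes, r was highest between Nrxn2 and Lrrtm2 (0.59) and lowest between Nlgn2 and Lrrtm4 (-0.45).

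A list of 47 binding partners and scaffolds of neurexins and neuroligins was followed over the same span. In excitatory neurons 11 of 34 tested partners were lower at P21 by 1.5-fold or more (32.4%, beside 21.5% of all genes) and 1 was higher (2.94%, beside 12.8%), with a median log2 ratio of -0.16. In inhibitory neurons 11 of 35 were lower (31.4%, beside 21.4%) and 1 higher (2.86%, beside 14.6%), with a median of -0.24. The partner that was higher was in both classes Dlg2, a postsynaptic scaffold of the PSD-95 family, with 2597 CPM at E19 against 5076 CPM at P21 in excitatory neurons and 2241 against 4194 CPM in inhibitory ones. With median-of-ratios scaling, 2 and 4 partners were higher.

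Mdga1, which binds neuroligins and blocks their access to neurexins, was 139 CPM at E19 and 32.6 CPM at P21 in excitatory neurons (log2 ratio -1.94) and 58.0 and 22.5 CPM in inhibitory neurons (-1.20). Cbln2, a secreted cerebellin that bridges neurexins to delta receptors, was 63.6 and 20.1 CPM (-1.45) and 27.8 and 5.75 CPM (-1.61). Igsf21, a neurexin ligand of inhibitory synapses, followed in excitatory neurons, at 110.2 and 48.9 CPM (-1.10), and Lin7c, a scaffold protein of the Cask complex, came after Cbln2 in inhibitory neurons, at 52.3 and 18.7 CPM (-1.28). The largest rises after Dlg2 were short of 1.5-fold. They were Gphn, the gephyrin scaffold of inhibitory synapses (688 and 1005 CPM, 0.54), and Clstn3, a calsyntenin that binds neurexins (116 and 162 CPM, 0.46), in excitatory neurons, and Mdga2 (2187 and 3189.8 CPM, 0.54) and Clstn3 (119.8 and 176 CPM, 0.54) in inhibitory neurons. Mdga1 and its paralog Mdga2 thus had log2 ratios of opposite sign in both classes.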

How the data were processed

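The authors' deposited table held counts of UMIs per gene and nucleus, not normalised, made with 10x 3′ v3 chemistry, per the labels, and Cell Ranger 3.0.2, per the submitters' processing notes and design text, against an mm10 pre-mRNA reference; the deposited table of nuclei gave stage, class, subtype and the percent of mitochondrial UMIs, at most 5. The filters on nuclei, the treatment of doublets and the naming of classes are not given in the sources used here. A label abbreviates the embryonic stage in a second way; E19, of the title, was used. UMI totals recomputed from the matrix equalled the deposited ones in 9724 of 9724 nuclei, and 7 numeric columns were not used. UMIs were summed per library and class or subtype (30 nuclei or more) and scaled to CPM; log2 ratios added 5 CPM to both values, which understates changes of low genes. Tested means 20 CPM or more in the higher library, and the threshold was 1.5-fold. Intervals (95%) were exact Poisson for levels, exact binomial for UMI ratios of 2 genes, and for log2 ratios of CPM a normal approximation from the Poisson variance of both counts; all cover counting error only. With 1 library per stage, no test was made. Calculations used Python 3.11.15, numpy 2.4.6, scipy 1.17.1 and pandas 2.3.3 and were tested on simulated data. Positions came from GENCODE M21, where 31011 of 31053 identifiers were found, and promoter sequences from RefSeq, with windows of 6 of the 9 genes used here. Ca10 and Ca11 of the partner list are listed as Car10 and Car11. Genes named beyond the members were the 3 largest rises and falls of the partner list per neuron class, the 3 host genes and the 2 genes most like each member; of the neuron subtypes, the 3 highest and 2 lowest per member were named by rule and others after their values were seen. The members and lists were chosen with earlier results of these data known. Alternatives were other pseudocounts, scaling, weighting of nuclei or subtypes, thinning of nuclei to 2300 UMIs, leaving out EN7, and other minimum levels.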

Additional observations from a re-analysis of the deposited data

Results flagged for a closer look

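From E19 to P21, Nlgn1 had a log2 ratio of 0.17 in excitatory and -0.058 in inhibitory neurons, each beyond its counting interval and of opposite sign, a difference of 0.23 (excitatory minus inhibitory, 0.19 to 0.26). The difference was not tested, as each stage had 1 library. The inhibitory value changed sign when subtypes were weighted alike (0.29) or libraries were scaled by median of ratios (0.048).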

How the results depend on the processing

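No paired analysis was possible because each stage had 1 library; this concerns the stage comparisons, while the neuron classes were compared within each library throughout. Of 271 recomputed values, 57 of 73 counts stayed within 1.5 times the reported count, and 149 of 198 log2 values of single genes stayed within the counting interval (stage ratios) or 1 SD over libraries (class and subtype differences) of the reported value. No value past 1.5-fold changed sign. Median-of-ratios scaling moved the median of all genes tested from -0.061 to 0.065 in excitatory and from -0.037 to 0.071 in inhibitory neurons. In excitatory neurons, lower members numbered 4 as reported, 1 with 20 CPM added, 2 with median-of-ratios scaling and 1 among genes of 100 CPM or more. In inhibitory neurons, lower members numbered 2, and 1 with 20 CPM added, with subtypes weighted alike or among genes of 100 CPM or more; higher members numbered 0, and 1 (Lrrtm4) with median-of-ratios scaling, nuclei weighted alike, subtypes weighted alike or thinned nuclei. In astrocytes, median-of-ratios scaling gave 1 lower and 1 higher member against 2 and 0. With that scaling, higher partners numbered 2 in excitatory and 4 in inhibitory neurons, against 1 in each. The highest subtype was the reported one for 3 of 9 members among subtypes of 100 nuclei or more and for 4 of 9 among those with 30 nuclei in all 4 libraries, an alternative chosen after seeing the data. Nrxn3 stayed between -2.48 and -2.31 (mean log2 ratio of excitatory to inhibitory) and Nrxn2 between -1.18 and -0.88 (P21 to E19) under every alternative run. Depth limits Lrrtm2 most, at 79 to 202 UMIs per neuron class and library.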
